A study of Populus tremula x Populus alba with 7 samples.

Results

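The PtrARF5a peak list was compared with the pool of the other 5 lists of the series. Every peak of the PtrARF5a library was a member, which gave 5397 of the 9442 peaks in the 6 lists. The other 5 TFs, PtrC2H2ZF1, PtrC2H2ZF2, PtrBLH, PtrNAC127 and PtrCORONA, contributed 4045 peaks, which merged into 1499 pooled regions. PtrARF5a peaks that shared at least 1 bp with a pooled peak were called overlapping, and the rest PtrARF5a-only.

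Each sample was leaf chromatin of the poplar hybrid Populus tremula × Populus alba in which 1 TF fused to GFP had been produced transiently. The fusion was driven by the constitutive CaMV35S promoter and delivered by Agrobacterium to whole plants, and 8 g of leaf was taken after 7 days and fixed with 1% formaldehyde for 15 min. An antibody against GFP was used for all 6 TFs, and the control was input chromatin without antibody, for which no peak list was used here. There was 1 library per TF, so a difference between TFs and one between libraries cannot be told apart, and no test between lists was possible.

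Auxin response factors bind auxin response elements in promoters and switch genes on or off in response to auxin. Their partners, the Aux/IAA repressors, are degraded when auxin is present, which frees the factor. ARF5 (MONOPTEROS) of Arabidopsis is an activator known for its part in vascular development. C2H2 zinc fingers, BLH homeodomain proteins, NAC factors and CORONA, a class III HD-ZIP protein in Arabidopsis, are other families of plant transcription factors with members active in stem and vascular development. Leaf cells under a constitutive promoter are not the developing xylem in which these TFs are of interest, and the amount of fusion protein in each sample was not examined here.

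Peaks had been called by MACS2, which gives each peak a position, a summit, a fold enrichment over the control and a −log10 q (the significance adjusted for multiple positions). Because libraries differ in the scale of their fold enrichments, strength was expressed as a rank percentile within a list by −log10 q, where 100 is the strongest peak. The study states a rough raw read number per sample, but the mapped reads left in each library are unknown here. The weakest PtrARF5a peak had a −log10 q of 2.02, against 2.08 to 4.26 for the weakest peak of the pooled lists. Positions are counted from 1 in the genome of the lists and are given without gene features, because no sequence or annotation of that genome was used here. Intervals in brackets are 95% intervals, exact binomial for shares and from order statistics for medians. They cover counting error only, and peaks of 1 list are not replicates.

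Most of the PtrARF5a list had no counterpart in any other list, yet nearly all of the strongest PtrARF5a peaks did. Of the 5397 peaks, 1397 (25.9%, 24.7 to 27.1) were overlapping and 4000 were PtrARF5a-only. The list was cut into 10 deciles by −log10 q, from decile 1 (weakest) to decile 10 (strongest). In decile 10, 535 of 541 peaks (98.9%, 97.6 to 99.6) were overlapping, and 471 of them had a peak in each of the 5 pooled lists. The share fell to 60.2% in decile 9 and to 28.5% in decile 8. In deciles 1 to 5 together it was 7.66%, or 207 of 2702 peaks, and none of these 207 had a peak in all 5 pooled lists. The 100 strongest PtrARF5a peaks were all overlapping, as were 495 of the strongest 500 and 830 of the strongest 1000.

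The share also depended on how long the lists were. With PtrARF5a limited to its 1159 strongest peaks, the length of the longest pooled list, 76.2% were overlapping. With every list limited to its 575 strongest peaks, the length of the shortest, 530 PtrARF5a peaks (92.2%, 89.7 to 94.2) met a peak of another list. The same share was 98.8% for PtrC2H2ZF1 and 98.3% for PtrC2H2ZF2, the zinc fingers. It was 95.5% for PtrBLH and 95.3% for PtrNAC127, and 98.1% for PtrCORONA. At equal length PtrARF5a thus had the lowest share of the 6 lists, with an interval that met those of PtrBLH (93.4 to 97.0) and PtrNAC127 (93.2 to 96.9). With the partner lists left whole, 566 of the 575 strongest PtrARF5a peaks (98.4%, 97.0 to 99.3) met a peak of another list. The shares of the other 5 lists were then 99.1% to 99.8%, with the PtrARF5a list among their partners. Over the whole lists, 25.9% of PtrARF5a peaks met a peak of another list, against 95.6% to 99.5% in the other 5 lists. The pools were unlike: PtrARF5a was set against 4045 peaks, while each other list was set against a pool with the 5397 PtrARF5a peaks. Of the 647 pooled regions of 1 list, 522 had a PtrARF5a peak, so part of the contrast comes from the PtrARF5a list itself. The comparison at equal length was chosen after the values had been seen.

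**Figure D1:**
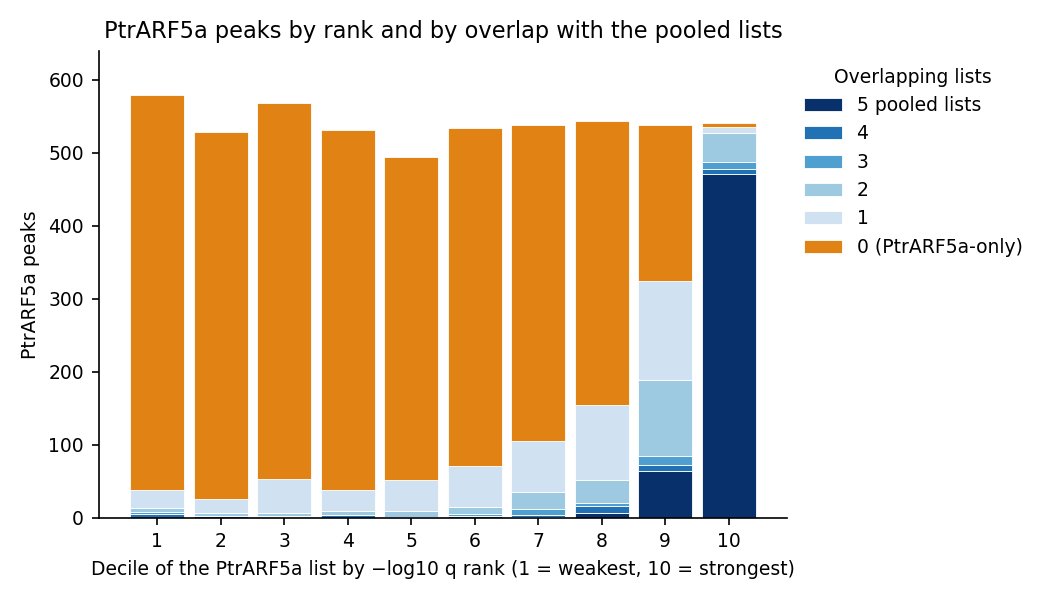
Number of PtrARF5a peaks (y axis) in each decile of the list by −log10 q rank (x axis, weakest on the left), coloured by how many of the 5 pooled lists had an overlapping peak. Peaks in all 5 pooled lists were concentrated in decile 10 (471 peaks), where 6 PtrARF5a-only peaks were left. Deciles differ in size because of tied ranks.

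Overlapping peaks fell into a group shared with every list and a group shared with PtrBLH or PtrCORONA. A peak in all 5 pooled lists was found for 543 PtrARF5a peaks (10.1%) and a peak in a single pooled list for 532 (9.86%), while 237 met 2 lists, 42 met 3 and 43 met 4. Among the 532 with 1 partner list, the partner was PtrCORONA for 278 and PtrBLH for 232. It was PtrNAC127 for 19 and PtrC2H2ZF2 for 3, and PtrC2H2ZF1 was the only partner of none. With 2 partner lists, PtrBLH and PtrCORONA formed the pair for 178 of 237 peaks, and PtrCORONA with PtrNAC127 for 52. PtrCORONA and PtrBLH were also the 2 longest pooled lists (1159 and 1023 peaks).

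The median −log10 q was 92.8 for PtrARF5a peaks in all 5 pooled lists, 11.2 for those with 1 partner list and 6.83 for PtrARF5a-only peaks. Their median fold enrichments were 15.0, 7.98 and 6.14. Where PtrCORONA was the only partner, the PtrARF5a peak ranked at a median of 67.4 (64.0 to 70.8) in its list, while the PtrCORONA peak ranked at 19.4 (17.4 to 21.4) in its own. Where PtrBLH was the only partner, the PtrARF5a peak ranked at 70.0 (65.3 to 72.8) and the PtrBLH peak at 18.1 (15.3 to 22.2). These percentiles refer to lists of different length (5397 PtrARF5a, 1159 PtrCORONA and 1023 PtrBLH peaks), so they place a peak within its own list and do not compare its strength between lists.

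Where an overlapping pair was one to one, the PtrARF5a peak usually lay within the other. The PtrARF5a peak was wholly inside the partner peak in 89.6% of 538 pairs with PtrC2H2ZF1, 88.0% of 557 with PtrC2H2ZF2 and 88.5% of 620 with PtrNAC127. The shares were 61.0% of 936 pairs with PtrBLH (57.8 to 64.1) and 65.0% of 1060 with PtrCORONA (62.0 to 67.9), against lower limits of 84.98% or higher for the other 3. The lists brought different sites: PtrCORONA was the partner of 278 and PtrBLH of 232 of the 532 peaks with 1 partner list. At sites of all 5 pooled lists, 482 of 543 PtrARF5a peaks lay inside every partner, those of PtrBLH and PtrCORONA included. The median distance between summits was 8 bp with PtrNAC127, 10 bp with PtrC2H2ZF2, 11 bp with PtrC2H2ZF1, 16 bp with PtrCORONA and 20 bp with PtrBLH. The partner peak was at the median 1.41 (PtrBLH) to 1.73 (PtrNAC127) times as wide as the PtrARF5a peak.

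Summits were closer at sites of all 5 pooled lists, and the PtrARF5a peak lay inside its partners more often. With the distance first taken as the median over a peak's partners, the summits of those 543 peaks were a median of 10 bp apart (9 to 11), and 482 peaks (88.8%, 85.8 to 91.3) lay inside every partner. For the 532 peaks with 1 partner list the median was 47 bp (42 to 50), and 148 (27.8%, 24.1 to 31.8) lay inside. The median ratio of partner to PtrARF5a width was 1.71 over pairs at sites of all 5 pooled lists and 1.17 with 1 list. Lying inside depends on this ratio, and the groups also differed in strength, so the inside shares are not a measure of match alone. The order of strength was alike in the pairs: Spearman's rho between the −log10 q ranks of PtrARF5a and partner was highest with PtrBLH (0.903), then PtrNAC127 (0.890), PtrCORONA (0.881), PtrC2H2ZF1 (0.864) and PtrC2H2ZF2 (0.863). For fold enrichment it was lower, 0.377 and 0.358 for the zinc fingers PtrC2H2ZF1 and PtrC2H2ZF2, against 0.631 to 0.733 for the other 3. These correlations run across sites, which share the input control, and many of the sites enter more than 1 of the pairs.

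The strongest overlapping peaks stood at sites of every list. The 10 with the largest −log10 q, from 271 to 321, had fold enrichments of 17.5 to 80.4 and all met the 5 pooled lists. The first, on chromosome 9 at 12365081 to 12365603, reached a −log10 q of 321 at a 24.4-fold enrichment. The highest fold enrichment among the 10, 80.4, was on chromosome 3 at 18721839 to 18722827. These 10 were picked as the strongest of the overlapping class, so by themselves they show no relation between strength and overlap.

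The strongest PtrARF5a-only peaks were few and most stood apart from the pooled regions. A group of 4 neighbouring peaks on chromosome 2 spanned 4.14 kb, between 1555562 and 1559702. The strongest, at 1557708 to 1558746, reached a −log10 q of 176 at a 55.1-fold enrichment, and with 1039 bp it was the only PtrARF5a-only peak over 1000 bp. The weakest of the 4, at 1556548 to 1557027, had a −log10 q of 26.7. No pooled peak lay within 10 kb of this group, and the nearest was 101 kb away. The gene of PtrARF5a has a chromosome 2 identifier in Populus trichocarpa, and the infiltrated plasmid carried its coding sequence. Whether these peaks lie in that gene was not analysed here, so plasmid DNA and binding cannot be told apart at this site.

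Outside that group the strongest PtrARF5a-only peak was on chromosome 8 at 11701590 to 11701887, with a −log10 q of 43.7, a 16.7-fold enrichment and a gap of 25.1 kb to the nearest pooled peak. A peak on chromosome 5 at 8986725 to 8987011 followed, with a −log10 q of 42.4, a 21.4-fold enrichment and a gap of 150 kb. On chromosome 2, at 130930 to 131242, a peak with a −log10 q of 38.0 lay 403 kb from a pooled peak. These 3, with the 3 strongest of the chromosome 2 group, were the 6 PtrARF5a-only peaks in decile 10. Peaks on chromosome 10 at 12423213 to 12423524 and on chromosome 12 at 12354816 to 12355147 had the same −log10 q, 35.7, and the same fold enrichment, 17.6. The peak on chromosome 10 was 3.63 kb from a pooled peak and that on chromosome 12 was 128 kb away.

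When a stricter threshold was put on the PtrARF5a list alone, with the pooled lists left whole, PtrARF5a-only peaks were removed faster than overlapping ones. At a −log10 q of at least 5, 1328 overlapping and 2904 PtrARF5a-only peaks were left, at 10 there were 1113 and 991, at 20 there were 765 and 99, and at 50 there were 444 and 3. With a −log10 q of at least 10 in all 6 lists, 794 of 2104 PtrARF5a peaks (37.7%) were overlapping, against 1113 of 2104 (52.9%) with the pooled lists whole. Most PtrARF5a-only peaks were in the weaker part of the list: 2495 of the 4000 were in deciles 1 to 5, against 207 of the 1397 overlapping peaks. A −log10 q of at least 4.26, the value of the weakest PtrC2H2ZF1 peak, was reached by 3278 of the 4000. That value comes from another library, and the mapped reads of each library are unknown here. The median rank percentile was 86.0 (84.9 to 87.0) for overlapping peaks and 39.3 (39.3 to 41.1) for PtrARF5a-only peaks. By fold enrichment the medians were 84.5 for overlapping and 40.1 for PtrARF5a-only peaks. An overlapping site had to pass a threshold in a second library, so the grouping partly sets this direction.

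Overlapping PtrARF5a peaks were wider than PtrARF5a-only peaks. The median width was 314 bp (307 to 324) for overlapping peaks and 216 bp (214 to 219) for PtrARF5a-only peaks. The narrowest width in the list, 167 bp, was held by 28 overlapping (2.0%) and 616 PtrARF5a-only peaks (15.4%). Widths over 500 bp were found in 195 overlapping and 41 PtrARF5a-only peaks. The 4 widest overlapping peaks were 3537 to 4589 bp wide, the widest on chromosome 14 at 16977085 to 16981673 and the next 3 on chromosome 2 between 18349254 and 18376086, and each met all 5 pooled lists.

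Width followed strength, and the difference between the classes was smaller within a decile. In decile 9 the medians were 316 bp (299 to 338) for 324 overlapping peaks and 287 bp (273 to 302) for 214 PtrARF5a-only peaks. In decile 6 they were 290 bp (273 to 316) for 71 overlapping and 219 bp (213 to 225) for 463 PtrARF5a-only peaks, and in decile 3 they were 207 bp (187 to 243) for 53 overlapping and 200 bp (193 to 206) for 516. Overlapping peaks had the larger median in each of the 10 deciles, though the intervals met in several. The order turned round with all lists at 575 peaks: 530 overlapping peaks had a median width of 359 bp (340 to 374), which was 18.5 bp below that of the 45 PtrARF5a-only peaks. Only 9 of the 575 met no peak of the whole pooled lists, so most of the 45 had a counterpart that the cut removed.

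PtrARF5a peaks of either class were narrower than those of the pooled lists. No PtrARF5a-only peak was wider than 1039 bp, and the median over the PtrARF5a list was 239 bp, against medians of 488 to 553 bp in the pooled lists. The narrowest peak measured 167 bp in the PtrARF5a list, against 284 to 297 bp in the pooled lists, so the lower limit of width differed between the libraries. MACS2 sets this limit from the fragment length of each library, and its part in the number of PtrARF5a peaks was not tested. The 5397 PtrARF5a peaks covered 1.49 Mb, against 0.397 to 0.629 Mb for each pooled list.

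**Figure D2:**
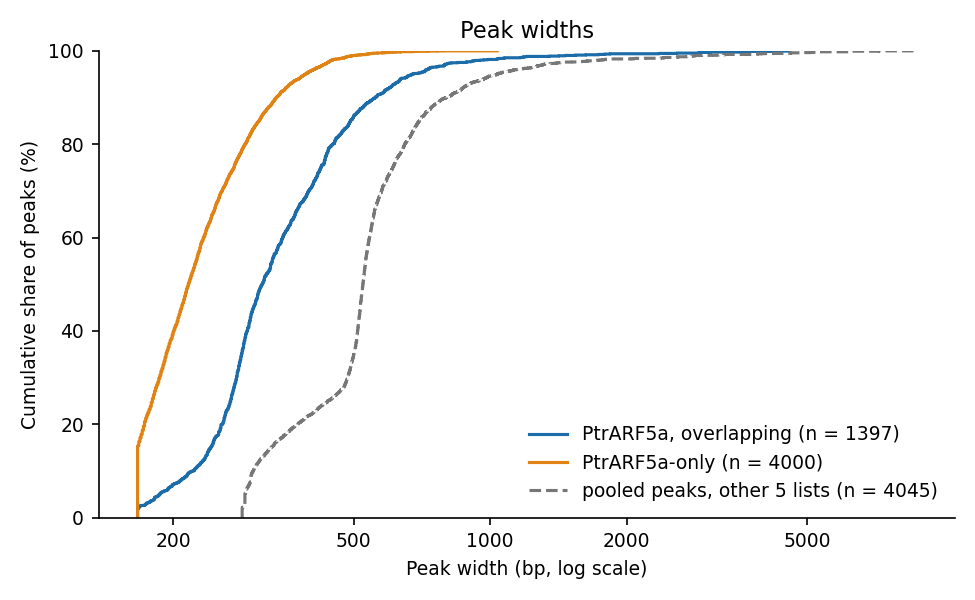
Cumulative share of peaks (y axis, %) against peak width (x axis, bp, log scale) for overlapping PtrARF5a peaks, PtrARF5a-only peaks and the peaks of the other 5 lists. The median was 314 bp for overlapping and 216 bp for PtrARF5a-only peaks, and the vertical starts mark the narrowest width of a list, 167 bp for PtrARF5a.

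Few PtrARF5a-only peaks lay at the edge of a pooled peak. The median gap to the nearest pooled peak was 74408 bp (71678 to 78179) for the 3953 PtrARF5a-only peaks on a chromosome or scaffold with a pooled peak, and the other 47 stood on 42 scaffolds without any. There were 38 within 500 bp of a pooled peak, 93 within 1000 bp (2.33%) and 504 within 10 kb (12.6%). The share of the genome this near to a pooled peak was not computed. These shares therefore do not show whether the peaks keep near to or away from pooled peaks. A gap over 500 kb was found for 78. Strength did not change in order with the gap: the median rank percentile was 37.2 (29.5 to 43.4) up to 1000 bp, 39.3 from there to 10000 bp, 41.3 from there to 100000 bp, and 39.3 beyond.

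The 1 bp rule left few peaks near its edge. The smallest overlap, 5 bp, was that of a 187 bp peak on chromosome 2 at 16862079 to 16862265 (−log10 q 4.82). The smallest gap, 4 bp, was that of a 167 bp peak on chromosome 5 at 19040776 to 19040942 (−log10 q 3.56). In all, 3 overlapping peaks shared less than 50 bp with any pooled peak, and 5 PtrARF5a-only peaks had a gap of up to 100 bp.

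The 5 PtrARF5a-only peaks farthest from a pooled peak had rank percentiles of 11.5 to 58.4. The highest-ranked of them, on chromosome 2 at 20434990 to 20435214 (−log10 q 9.10), had a gap of 881 kb. The largest gap, 1295 kb, was that of a peak on chromosome 19 at 185481 to 185647 (−log10 q 5.17). The next, 1088 kb, was on chromosome 2 at 20228331 to 20228498 (−log10 q 5.26). That peak lay in the longest stretch without a pooled peak between neighbouring pooled regions, 2.93 Mb of chromosome 2 from 18385287 to 21316631, which held 15 PtrARF5a-only peaks with a highest −log10 q of 16.8. The second longest, 2.40 Mb of chromosome 12 from 7086476 to 9488908, held 4. These stretches were looked for after the gaps had been seen. Of 1420 stretches between neighbouring pooled regions of a chromosome, 953 (67.1%) held at least 1 PtrARF5a-only peak and the fullest held 29.

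Within the PtrARF5a list, peaks of both classes had a neighbour at a similar distance. The median gap to the nearest other PtrARF5a peak was 15488 bp (13134 to 18252) for overlapping peaks and 13720 bp (12742 to 14710) for PtrARF5a-only peaks, with intervals that met. The difference of 1.77 kb turned to −4.78 kb when the PtrARF5a list was limited to 1159 peaks, and to −63.6 kb with all lists at 575. With all lists at 575, most of the PtrARF5a-only peaks had a counterpart in the whole pooled lists. Another PtrARF5a peak within 500 bp was found for 9.32% (7.84 to 11.0) of overlapping peaks and 5.07% (4.41 to 5.80) of PtrARF5a-only peaks. The median over the whole PtrARF5a list was 14005 bp, against 102737 to 209001 bp for the peaks of each pooled list among themselves, in lists of 575 to 1159 peaks.

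**Figure D3:**
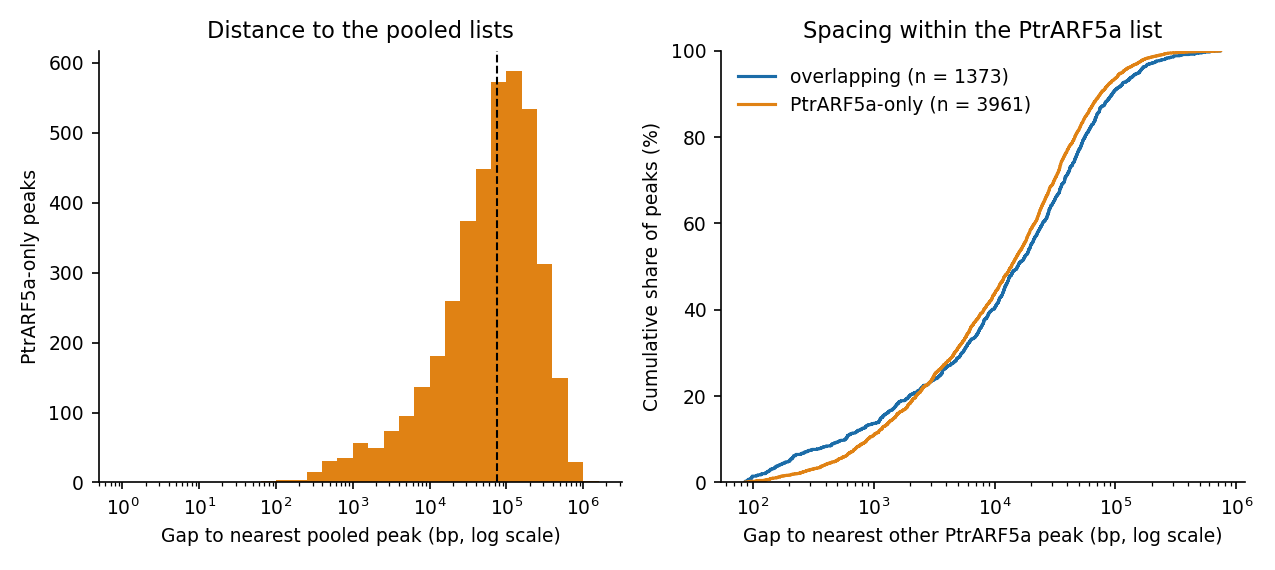
Left, number of PtrARF5a-only peaks (y axis) by gap to the nearest pooled peak (x axis, bp, log scale), with the median of 74408 bp dashed. Right, cumulative share (y axis, %) of 1373 overlapping and 3961 PtrARF5a-only peaks by gap to the nearest other PtrARF5a peak (x axis, bp, log scale); the curves cross, since overlapping peaks had more neighbours within 500 bp and a larger median.

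Neighbours at short range tended to be of the same class. Within 1000 bp, the nearest neighbour was a PtrARF5a-only peak for 70 of 187 overlapping peaks (37.4%, 30.5 to 44.8) and for 359 of 432 PtrARF5a-only peaks (83.1%, 79.2 to 86.5). At any distance the shares were 65.7% for overlapping and 77.5% for PtrARF5a-only peaks, and 74.1% of the list is PtrARF5a-only. Joined at gaps of up to 5 kb, the PtrARF5a-only peaks formed 3428 runs, of which 462 had 2 or more peaks and held 1034 peaks (25.9% of the class).

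The longest runs of PtrARF5a-only peaks had 5 peaks, and there were 5 such runs. On chromosome 18, the run from 2083895 to 2090679 reached a −log10 q of 15.4 and lay 185 kb from a pooled peak. On chromosome 14, the run from 2014649 to 2024508 reached 12.7, and on chromosome 5, the run from 7447809 to 7458575 reached 11.1. The other 2, on chromosomes 12 and 4, reached 10.3 and 9.08. None of these runs held a peak of decile 10, unlike the run on chromosome 2 described above.

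Some PtrARF5a peaks at short range were pieces of 1 broad pooled region. Of the 1499 pooled regions, 1307 held 1 PtrARF5a peak, 31 held 2, 5 held 3, 2 held 4 and 1 held 6. The one with 6 was on chromosome 13 at 9588836 to 9593118, and those with 4 were on chromosome 2 at 18379052 to 18385286 and on chromosome 9 at 987524 to 991768, each a region of all 5 pooled lists. The region on chromosome 2 was a single peak of 6175 to 6229 bp in each of these lists. At such regions the number of PtrARF5a peaks is larger than the number of regions they share with the other lists.

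PtrARF5a-only peaks were found on each of the 19 chromosomes, at densities that differed by a factor of 2.87. The density was highest on chromosome 9, with 15.4 per Mb (13.3 to 17.7), followed by 15.0 on chromosome 8 and 14.2 on chromosome 2. It was lowest on chromosome 19, with 5.35 per Mb (4.27 to 6.63), and then on chromosome 17 with 5.93 and chromosome 13 with 6.83. The chromosomes at the ends changed with the threshold: the density was highest on chromosome 8 with a −log10 q of at least 10 in all lists, and highest on chromosome 2 and lowest on chromosome 17 with PtrARF5a limited to 1159 peaks. Over the whole list, the intervals of the highest and the lowest chromosomes were far apart, while many in between met. Over the 392 Mb of the 19 chromosomes, the density was 10.03 per Mb for PtrARF5a-only peaks, 3.41 for overlapping peaks and 3.67 for pooled regions. Chromosome lengths were taken as the largest peak end in the 6 lists.

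The density of PtrARF5a-only peaks varied with that of the pooled regions. Chromosome 9 also had the most pooled regions (5.02 per Mb) and chromosome 19 the fewest (2.29 per Mb). Across the 19 chromosomes Pearson's r was 0.710 and Spearman's rho 0.693, and in 383 windows of 1 Mb the values were 0.405 and 0.464. Chromosomes and windows share the mappable sequence and the gene content, which were not examined, so these are descriptions. The window with the most PtrARF5a-only peaks, 32, was the second Mb of chromosome 2, which holds the strong group described above and 6 pooled regions. Of the 20 windows with no pooled region, 19 held PtrARF5a-only peaks, at a median of 2.5 over the 20, against 9 in windows with a pooled region.

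The overlapping share was lowest on chromosomes 14 (19.3%, 15.1 to 24.1) and 8 (19.4%, 15.4 to 23.9) and highest on chromosomes 13 (34.5%, 27.4 to 42.2) and 17 (33.6%, 25.9 to 41.9). The other 15 chromosomes lay between 23.5% and 31.4%. Chromosome 8 had 3.93 PtrARF5a-only peaks per pooled region and chromosome 13 had 1.64. With the PtrARF5a list limited to 1159 peaks the shares ran from 62.7% on chromosome 8 to 88.9% on chromosome 17. Along the chromosomes, cut into 10 equal parts, PtrARF5a-only peaks were densest in part 9 (12.5 per Mb) and part 2 (12.4 per Mb) and sparsest in part 4 (8.09 per Mb).

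**Figure D4:**
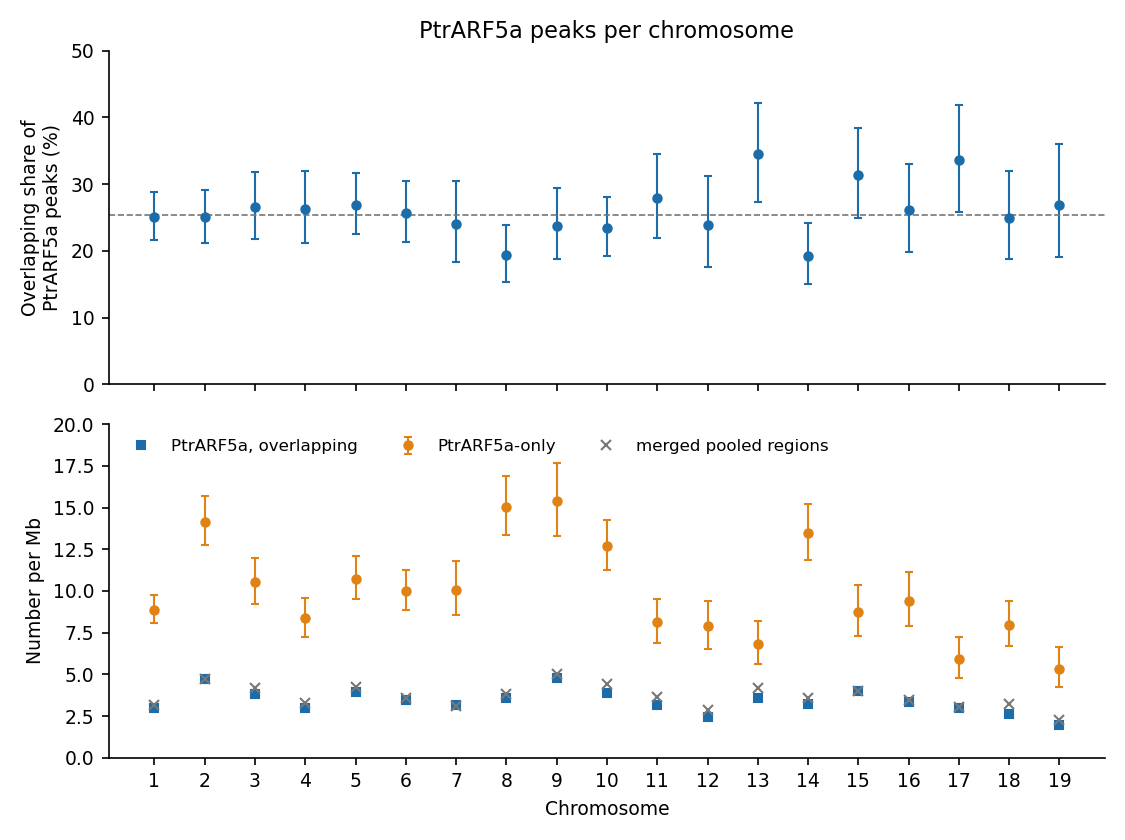
Top, share of PtrARF5a peaks that were overlapping (y axis, %) on each of the 19 chromosomes (x axis), with exact 95% intervals and the share over all chromosomes dashed (25.4%). Bottom, number per Mb of overlapping PtrARF5a peaks, PtrARF5a-only peaks (with 95% Poisson intervals) and merged pooled regions; the first 2 and the third were highest on chromosome 9 and lowest on chromosome 19.

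Few peaks of the pooled lists lacked a PtrARF5a peak, and most of those were weak in their own lists. Of the 4045 pooled peaks, 195 (4.82%, 4.18 to 5.53) had no PtrARF5a peak and 3850 (95.2%) had one. The median rank percentile within the own list was 13.4 for peaks that lacked PtrARF5a and 52.1 for those with it, and 139 of the 195 ranked under 25. Their median width was 354 bp, against 527 bp for pooled peaks with PtrARF5a. A pooled peak with PtrARF5a had to pass a threshold in a second library, so the grouping partly sets the direction of these differences. With the PtrARF5a list limited to 1159 peaks, the share that lacked PtrARF5a was 22.5%.

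The peaks without PtrARF5a were spread over the 5 lists. They numbered 13 in the PtrC2H2ZF1 list (2.26%, 1.21 to 3.84) and 24 in the PtrC2H2ZF2 list (3.95%, 2.55 to 5.83). The other counts were 36 in the PtrNAC127 list (5.29%, 3.73 to 7.24), 58 in the PtrBLH list (5.67%, 4.33 to 7.27) and 64 in the PtrCORONA list (5.52%, 4.28 to 6.997). In the PtrNAC127 list, none of them ranked above 21.3, and in the PtrC2H2ZF1 and PtrC2H2ZF2 lists none reached 50. The 15 that ranked at 50 or higher were 9 PtrBLH and 6 PtrCORONA peaks. Of these, the PtrCORONA peaks ranked at 91.9, 70.1, 68.5, 61.2 and 50.7 all lay on chromosome 3 between 7359737 and 7367458. They are thus not separate sites, and this stretch is described below.

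**Figure D5:**
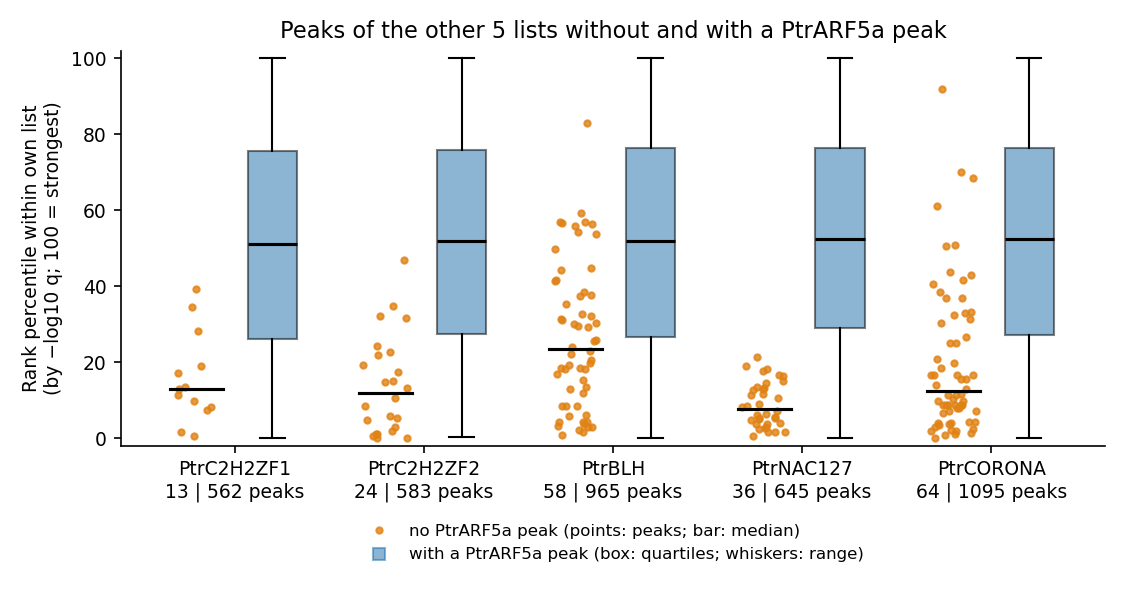
Rank percentile of each peak within its own list by −log10 q (y axis, 100 is the strongest) for the 5 pooled lists (x axis), with peaks that lacked a PtrARF5a peak as points (bar, median) and peaks with one as a box (quartiles, range as whiskers). The medians without PtrARF5a ran from 7.72 (PtrNAC127) to 23.5 (PtrBLH), against 51.1 to 52.5 with PtrARF5a.

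Counted as regions, 153 of 1499 (10.2%, 8.72 to 11.9) had no PtrARF5a peak, and 89.8% had one. The share was 19.3% (125 of 647) for regions of 1 list, 6.75% (17 of 252) for 2 lists, 18.8% (9 of 48) for 3 and 5.13% (2 of 39) for 4. All 513 regions of the 5 pooled lists had a PtrARF5a peak, and 0 of 513 without one allows a share of up to 0.717% (exact upper limit). PtrCORONA alone made 51 of the 153 regions, PtrBLH alone 43 and PtrNAC127 alone 24. The nearest PtrARF5a peak was at a median gap of 17.7 kb (14.2 to 23.0) from 149 of these regions, within 1000 bp for 17, and the other 4 stood on scaffolds without one.

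The strongest pooled peaks without PtrARF5a belonged to a single list. The first by rank, a PtrCORONA peak on chromosome 3 at 7364076 to 7364959 (rank percentile 91.9, fold enrichment 48.1), was 1 of 6 PtrCORONA regions within 7.72 kb, none of which met a PtrARF5a peak. A PtrBLH peak on chromosome 10 at 19015276 to 19015842 followed (rank percentile 82.9, fold enrichment 49.8). PtrARF5a had no peak within 18 kb of either, at gaps of 25687 bp and 18410 bp. The study's methods give PtrCORONA a chromosome 3 identifier and PtrBLH a chromosome 10 identifier in Populus trichocarpa. The study's discussion gives PtrCORONA a chromosome 1 identifier instead. Whether these peaks lie in those genes was not analysed here, so plasmid DNA and binding cannot be told apart at them either.

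Of the 11 regions of 3 or 4 pooled lists that lacked PtrARF5a, 9 had peaks of PtrC2H2ZF1, PtrC2H2ZF2 and PtrBLH, with fold enrichments of at most 4.78. Several were neighbours, on chromosome 11 between 7192244 and 7198397 and on chromosome 13 between 14751193 and 14753924, so the 9 are fewer separate sites. On chromosome 11, at 7197423 to 7198397, PtrC2H2ZF2 was enriched 3.15-fold (−log10 q 73.4), PtrC2H2ZF1 2.83-fold (61.6), PtrBLH 1.82-fold (31.9) and PtrCORONA 1.27-fold (4.34). The nearest PtrARF5a peak was 1619 bp away. On chromosome 13, at 14752327 to 14753924, the same 4 TFs had fold enrichments of 1.38 to 2.33, with a gap of 31172 bp to PtrARF5a. For comparison, the median fold enrichment of peaks with PtrARF5a was 28.4 in the PtrC2H2ZF1 list, 27.7 in the PtrC2H2ZF2 list and 10.5 in the PtrBLH list. The other 2 regions held PtrC2H2ZF2, PtrNAC127 and PtrCORONA, with PtrNAC127 enriched 11.2-fold in each, close to the 11.7-fold median of PtrNAC127 peaks with PtrARF5a. They lay on chromosome 3 at 21481967 to 21482467 and on chromosome 9 at 5647893 to 5648426. Chromosome 13 had the most regions without PtrARF5a, 18 of 67. Most were local: its 1 Mb window from 14000001 to 15000000 held 11 and that from 6000001 to 7000000 held 4.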

How the data were processed

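Peak lists of 6 ChIP-seq libraries were used, and the input sample had no file here. The authors trimmed reads (Trimmomatic), mapped them (Bowtie2, default settings) to a genome of the hybrid and dropped duplicates and mapping qualities under 30 (SAMtools). No source used here gives the assembly version. MACS2, 2.1.0 in the submitters' processing notes, then called peaks in each library. The deposited columns hold positions, a whole-number score, a fold enrichment (a ratio to the control), −log10 p-values and −log10 q-values, and the summit. The score equalled the whole part of 10 × −log10 q in 99.9% of peaks and was not used further.

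Peaks were compared by position, with 1 bp of overlap. Ranks used −log10 q. No test was run, because each TF had 1 library. The members, lists and rules were chosen with earlier results of these data known. Named peaks are the 10 strongest of each class, the 5 widest, the 5 farthest from a pooled peak, the 3 runs and the 3 pooled peaks with the most PtrARF5a peaks, and the strongest regions without PtrARF5a, or some of these. Peaks at the edge of the 1 bp rule, the long stretches without pooled peaks, the weakest peak of the chromosome 2 group, 2 of the 5 longest runs, and 2 regions of PtrC2H2ZF2, PtrNAC127 and PtrCORONA without PtrARF5a were added to these once their values were known. Overlap, gap and rank code was tested on simulated lists. Alternatives were a 50% overlap, a summit rule, a −log10 q of at least 5 or 10, shorter lists, leaving out each pooled list, chromosomes only, and other rank and distance measures. Software was matplotlib 3.10.9, scipy 1.17.1, pandas 2.3.3 and numpy 2.4.6 under Python 3.11.15.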

Additional observations from a re-analysis of the deposited data

How the results depend on the processing

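Of 108 values under alternatives, 60 stayed within the counting interval and 48 moved. With a −log10 q of at least 5 (and of at least 10) in all lists, the overlapping share was 28.4% (37.7%), pooled peaks without PtrARF5a 6.01% (5.74%), overlapping width 333 bp (at 10 alone), PtrARF5a-only width 226 bp (266 bp), overlapping rank 80.9 (at 10 alone), PtrARF5a-only rank 37.9 (33.4), overlapping spacing 21.8 kb (51.4 kb), PtrARF5a-only spacing 19.01 kb (46.7 kb), gap to a pooled peak 87.4 kb (147 kb), lowest PtrARF5a-only density 3.95 per Mb (1.47), highest 12.3 per Mb (5.97, on chromosome 8 in place of 9), and the highest chromosome share 52.5% (at 10 alone). With PtrARF5a limited to 1159 peaks, these were 76.2% overlapping, 22.5% without PtrARF5a, widths of 341 bp (overlapping) and 279 bp (PtrARF5a-only), ranks of 61.7 and 19.3, spacings of 90.3 kb and 95.04 kb, a gap of 58.1 kb, densities of 0.250 to 1.55 per Mb, and chromosome shares of 62.7% to 88.9%. With all lists at 575 peaks (added after seeing the data), the share was 92.2%, overlapping width 359 bp, overlapping rank 53.6 and pooled peaks without PtrARF5a 17.4%. Without PtrBLH or without PtrCORONA, the overlapping share was 21.6% and 20.7%, the gap 94.1 kb and 99.2 kb, and the PtrARF5a-only width 220 bp in each, with a PtrARF5a-only rank of 41.4 without PtrCORONA. With the summit rule 5.88% of pooled peaks lacked PtrARF5a, ranks by fold enrichment gave 84.5 for overlapping peaks, and chromosomes only gave 39.2 for PtrARF5a-only peaks. Overlapping peaks ranked higher in every alternative, and were wider in all but the 575-peak lists, where most PtrARF5a-only peaks had lost a counterpart to the cut. The spacing order turned in both shortened settings. No paired analysis was possible because each TF had 1 library, and for the same reason no replicate could be left out. Mapped reads per library are unknown here, so a site missing from a pooled list cannot be told from one below its threshold.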

Other observations

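On unplaced scaffolds, 129 PtrARF5a peaks stood on 88 scaffolds. The overlapping share was 46.5% (60 peaks, 37.7 to 55.5), against 25.4% (24.2 to 26.6) on the 19 chromosomes, and 39 of the 60 had a peak in all 5 pooled lists. The median rank percentile was 91.7 for the 60 overlapping and 16.3 for the 69 PtrARF5a-only scaffold peaks, whose median widths were 306 bp and 167 bp. Of the 60 pooled regions on scaffolds, 5 had no PtrARF5a peak. Of the 69 PtrARF5a-only scaffold peaks, 47 stood on scaffolds without any pooled peak. The 153 regions without PtrARF5a also formed local groups, among them 4 regions of PtrBLH and PtrCORONA on chromosome 13 between 6384811 and 6407805, and 4 regions on chromosome 13 between 14751193 and 14762328, with no PtrARF5a peak inside either group.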
